A study of Mus musculus with 6 samples.

Results

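Limb mesenchyme carries a set of transcription factors that mark where a limb cell comes from, and 10 of them were followed here in the RNA-seq of osteogenic MSCs: Prrx1, Prrx2, Tbx4, Tbx5, Tbx15, Pitx1, Shox2, Lmx1b, Meis1 and Meis2. They were chosen by symbol, and each was found once among the 20071 Ensembl IDs of the count table. Poly(A) RNA was sequenced from 3 cultures labelled WT (Pcif1fl/fl, called controls below) and 3 labelled Pcif1 CKO (Prrx1-Cre;Pcif1fl/fl, called CKO below). According to the methods of the study, MSCs came from femurs of 6-week-old C57BL/6J mice, the controls were littermates, and all cultures, controls included, were kept for 7 days in osteogenic medium that held dexamethasone (100 nM), ascorbic acid (50 μg/mL) and β-glycerophosphate (5 mM). In both genotypes Pcif1, the gene of the methyltransferase that places m6Am on the first transcribed adenosine of capped mRNAs, is flanked by loxP sites. The Cre recombinase that cuts them is driven by Prrx1 regulatory sequence, so Prrx1 is at once a gene studied here and the source of the driver, and cells without a history of Prrx1 activity keep Pcif1. The series' design text speaks of biological duplicates, whereas 3 libraries per genotype are labelled. The sources do not state whether the libraries came from separate mice, and the p-values measure the spread between these libraries.

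Prrx1 and Prrx2 are paired-related homeobox factors of limb bud and skeletal mesenchyme. Tbx4 and Pitx1 belong to the hindlimb and Tbx5 to the forelimb, while Tbx15 and Shox2 act in the growth of limb skeletal elements and Lmx1b gives limbs their dorsal identity. Meis1 and Meis2 are TALE homeobox factors of the proximal limb that bind DNA together with Pbx and Hox proteins.

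The libraries held between 20258209 and 28227696 counts. Control replicate 3 stood apart, with 3.63% of its counts on mitochondrial genes against 1.40% to 1.57% in the other 5 libraries, so that results are also given without it. Xist, which is transcribed from the inactive X chromosome, lay between 232 and 443 CPM in control libraries and between 0.722 and 1.79 CPM in CKO libraries, where CPM is the count scaled to library size with edgeR's TMM factors. The Y-linked gene Ddx3y lay between 48.4 and 62.2 CPM in control libraries and between 99.1 and 104 CPM in CKO libraries, so sex makeup and genotype cannot be told apart, although all 10 limb genes are autosomal. Pcif1 itself was at 39.3 to 42.8 CPM in controls and 37.8 to 39.7 CPM in CKO libraries, and counts per gene do not show the deleted exons.

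The label of mesenchymal cells held only in part. All 15 markers of mesenchymal stroma were detected, with a summed level of 12490 to 15973 CPM in control libraries and 15961 to 17149 CPM in CKO libraries. The 13 macrophage markers took a larger share of the reads, at 31666 to 35260 CPM and 32812 to 35978 CPM, and Lyz2, the lysozyme gene of myeloid cells, held most of it, with 21980 to 26233 CPM over the 6 libraries. Without Lyz2 the macrophage sum lies below the stromal sum in every library. The macrophage sums of the genotypes overlapped, and 1 of 13 markers passed the test of genotype (Fcgr1, higher in CKO). For macrophage markers, DESeq2 and the fit with no filter called 3 higher, and leaving out control replicate 3 gave 4 higher and 1 lower, where 9.01%, 5.74% and 21.5% of all genes passed in these 3 fits. The stromal list split, with 5 of 15 markers lower and 7 higher, where 4.51% and 2.88% of all genes tested were. The 7 became 1 without CKO replicate 1 and 2 without control replicate 2 or CKO replicate 2 or 3, and the 5 became 3 without control replicate 2 or CKO replicate 1 or 3. Of all genes 3.38% to 4.57% passed in these fits. At an unadjusted p under 0.05, 7 or 8 stromal markers were higher and 5 or 6 lower. The share of all genes at that unadjusted threshold is not given for any list, so such counts have no background to be read against. Of the 8 adipocyte markers 5 were lower, among them Adipoq, the adiponectin gene, at 42.9 to 53.8 CPM in control and 0.289 to 1.49 CPM in CKO libraries, while the 8 summed to 392 to 539 and 358 to 388 CPM. Adipoq and 2 other lower adipocyte markers, Plin1 and Cidec, reached the filter on low counts only through the controls, and also passed with no filter. Lepr and Cxcl12, markers of perivascular stroma, were among the 5 lower stromal genes. Neutrophil markers summed to less than 2 CPM, with the defining genes Ly6g, Mpo and Ngp at 3 counts or fewer in every library, and 1 of the 2 tested passed (S100a8, higher, over the filter in all CKO but only 2 control libraries), though not when any 1 library other than control replicate 3 was left out. Of 8 endothelial and 6 smooth muscle markers 0 passed edgeR's test, where an unadjusted p under 0.05 was reached by 2 markers of each list and DESeq2 called 1 of each. Of 3 tested chondrocyte markers 1 passed (Col10a1, lower), where 4.51% of all genes tested were lower. Col2a1 went the other way and did not pass (log2 fold change 0.69, adjusted p = 0.111 from edgeR), but passed in 3 of 13 alternative fits.

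**Figure D1:**
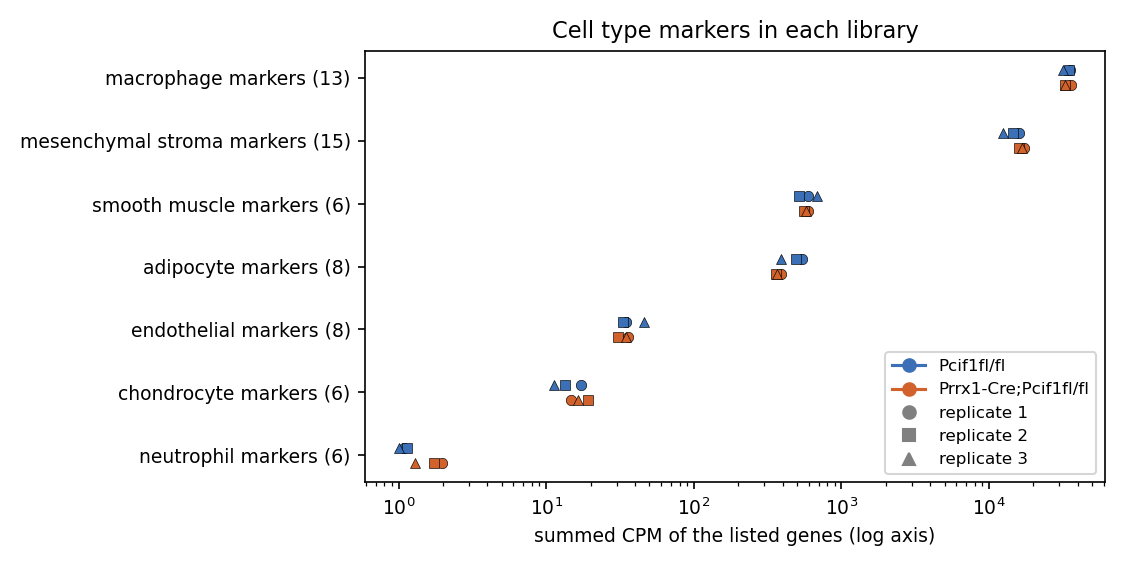
Summed CPM (log axis) of the marker genes of 7 cell types, with the number of genes in brackets, for each of the 6 libraries. Macrophage sums of 31666 to 35978 CPM lie above the stromal sums of 12490 to 17149 CPM in every library. This order rests on Lyz2 (21980 to 26233 CPM), without which the macrophage sums lie below the stromal sums.

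The limb genes were thus read beside abundant macrophage RNA, and in such bulk RNA fewer cells of a type and less RNA per cell cannot be told apart. The part that the moving stromal and adipocyte markers take in the results below was not tested.

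PCIF1 acts on transcripts that begin with A, so the bases around the annotated start sites are shown first. RefSeq's table for GRCm38.p6 held a start for 7 of the 10 genes. Each line gives 15 bases before and 15 bases from the start on, 5′ to 3′ along the transcript, with the first transcribed base in capitals.
Prrx1 (chr1:163313636-163313665, minus strand): ctgttttttcggtccGaggaaaaggaggta
Prrx2 (chr2:30845352-30845381, plus strand): ttcgggtccccgaccGactgacttgagatc
Shox2 (chr3:66981757-66981786, minus strand): cctcctcgtcctcctCctcctcttacttct
Tbx4 (chr11:85896750-85896779, plus strand): aggcacgcatacaggCacacatgcgcactc
Lmx1b (chr2:33641084-33641113, minus strand): gccagccccagctctAaaccgagcggctcc
Meis1 (chr11:19018955-19018984, minus strand): ctacttccgggttctAgcattctggtcgga
Meis2 (chr2:116064605-116064634, minus strand): tgcctctgcgtgtgtGagagtgtgtgtgcg
Meis1 and Lmx1b begin with A, or 2 of 7, against 34.4% of the 32851 annotated starts. Prrx1, Prrx2 and Meis2 begin with G and Tbx4 and Shox2 with C. These are annotated positions, and the counts do not show where transcripts began. Only the RefSeq start of Shox2 was the outermost start of the gene in GENCODE M21. For Prrx1 and Meis1 the RefSeq start lay 60 and 16 bases from it, for Lmx1b and Meis2 587 and 1220 bases, and for Prrx2 and Tbx4 10395 and 10343 bases.

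Over the limb genes, 4 of the 9 that could be tested differed between the genotypes at an adjusted p under 0.05 (quasi-likelihood test of edgeR, Benjamini-Hochberg adjustment over 13733 genes), where 7.40% of all genes tested did. Meis1 and Meis2 were lower in CKO MSCs (2 of 9, against 4.51% of all genes). Prrx2 and Tbx4 were higher (2 of 9, against 2.88%), where Tbx4 reached the filter on low counts only through the CKO libraries. Prrx1, Tbx15, Shox2, Pitx1 and Lmx1b did not pass, and Tbx5 was too low to be tested. The median log2 fold change of the 9 genes was 0.21, beside 0.0017 over all genes tested. When a 2-fold difference was asked for as well, as the study did, Meis2 was left among the lower genes (2.50% of all genes) and Tbx4 among the higher ones (1.03%), together 2 of 9 beside 3.53% of all genes. The groups did not overlap for 3 genes that were lower in CKO libraries, the Meis genes and Tbx15 (15.7% of all genes), and for 2 that were higher, Prrx2 and Tbx4 (15.0%), together 5 of 9 beside 30.8% of all genes.

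The counts depended on single libraries. Without control replicate 3, 3 limb genes were lower and 3 higher, while 21.5% of all genes then passed the test. With control replicate 1 left out there were 2 lower and 1 higher. Leaving out control replicate 2 gave 1 lower and none higher, and leaving out CKO replicate 1, 2 or 3 gave 0, 1 and 1 lower and none higher. In each of these 4 fits 3 genes were lower and 2 or 3 higher at an unadjusted p under 0.05. The share of all genes at that unadjusted threshold is not given, so these counts have no background to be read against. Between 3.38% and 5.59% of all genes passed the adjusted threshold in the 5 fits other than that without control replicate 3, which have fewer libraries.

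**Figure D2:**
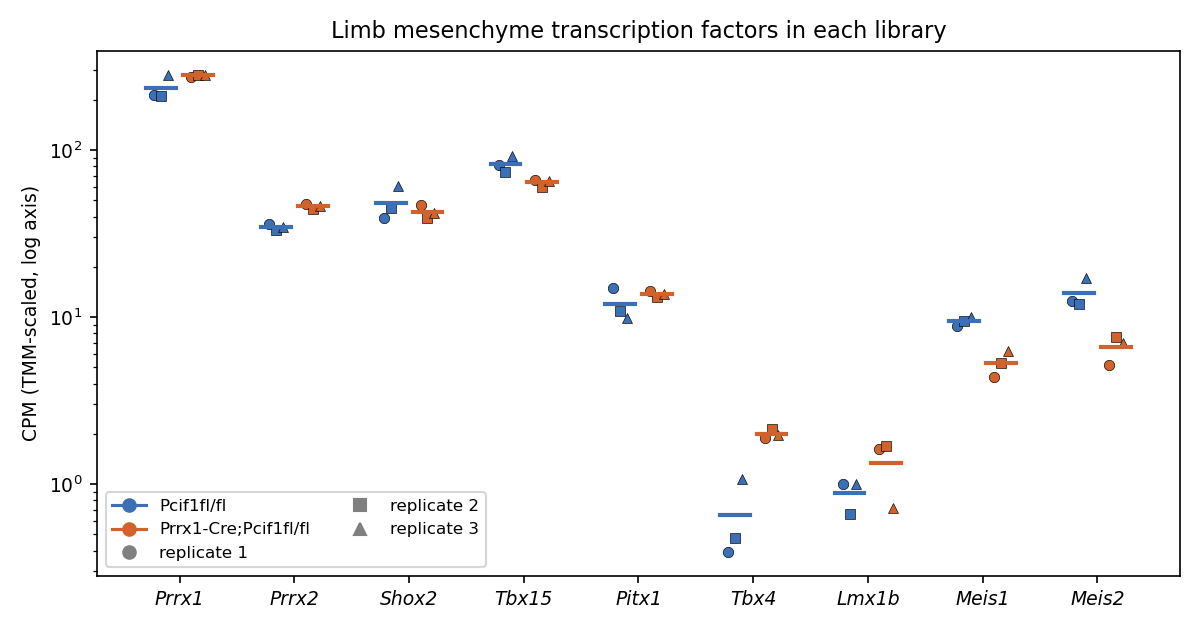
CPM (log axis) of the 9 tested limb genes in each library, with replicates 1 to 3 as circle, square and triangle and a line at each mean. The genotypes are apart for Prrx2, Tbx15, Tbx4, Meis1 and Meis2, and control replicate 3 is the highest control for Prrx1, Shox2, Tbx15, Tbx4, Meis1 and Meis2.

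**Figure D3:**
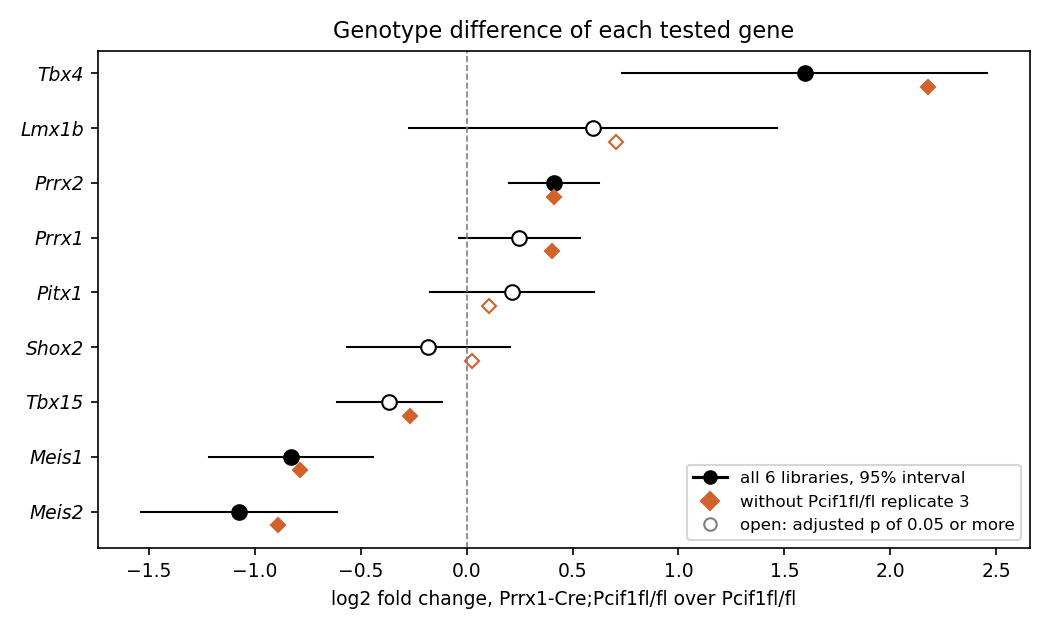
Log2 fold change of CKO over control libraries for the 9 tested limb genes, with the 95% interval from all 6 libraries (circles) and the value without control replicate 3 (diamonds). Filled symbols have an adjusted p under 0.05, and the circles run from -1.07 for Meis2 to 1.60 for Tbx4.

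Both Meis genes fell. Meis2 (ENSMUSG00000027210, GRCm38 chromosome 2, 115863064 to 116065839) was at 12.4, 12.1 and 17.1 CPM in control replicates 1 to 3 and at 5.18, 7.62 and 7.02 CPM in CKO replicates 1 to 3. No CKO library reached a control, and control replicate 3 was the highest. Meis2 fell by 1.07 on the log2 scale, from 13.9 ± 2.83 to 6.61 ± 1.27 CPM (SD, n = 3; standard error of the log2 fold change 0.20, adjusted p = 0.0154 from edgeR). The log2 fold change was -0.89 without control replicate 3 (adjusted p = 0.000691). The call was lost without CKO replicate 1 (adjusted p = 0.0726) or 3 (adjusted p = 0.0625), and over 13 alternative fits it passed in 11.

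Meis1 (ENSMUSG00000020160, chromosome 11, 18879817 to 19018985), the close relative of Meis2, was at 8.87, 9.52 and 10.004 CPM in controls and at 4.37, 5.33 and 6.30 CPM in CKO libraries. The controls lay within a narrow band, and the highest CKO library was below all of them. Meis1 fell by 0.83 on the log2 scale, with a standard error of 0.17 (95% interval -1.22 to -0.44, adjusted p = 0.0213 from edgeR), from 9.46 ± 0.571 to 5.33 ± 0.968 CPM (SD, n = 3). The log2 fold change of Meis1 was -0.79 without control replicate 3 (adjusted p = 0.00312). The threshold was missed without control replicate 2 (adjusted p = 0.0745) and without CKO replicate 1 (0.108) or 2 (0.0957), with log2 fold changes of -0.82, -0.70 and -0.83. Of the annotated exonic bases of Meis1, 9.77% overlap Gm37818 on the same strand and 8.51% the antisense gene Gm16140, neither of which has a row in the table. Windows of 75 bases in Meis1 transcripts matched none of Meis2 or the other limb genes, and the paralogs thus shared no sequence of that length.

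The per-length ratio of Meis2 to Meis1, taken within a library, was 1.23, 1.11 and 1.50 in controls and 1.04, 1.25 and 0.975 in CKO libraries. These ranges overlapped.

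The hindlimb genes Tbx4 and Pitx1 were both detected, at very different levels. Tbx4 (ENSMUSG00000000094, chromosome 11, 85886422 to 85916097) had 9, 13 and 30 counts in control replicates 1 to 3 and 42, 43 and 41 counts in CKO replicates 1 to 3. In CPM these were 0.393, 0.478 and 1.08 against 1.89, 2.14 and 1.97, with no overlap and with control replicate 3 above the other controls. Tbx4 rose 3.02-fold, a log2 fold change of 1.60 (standard error 0.38, 95% interval 0.73 to 2.46, adjusted p = 0.0396 from edgeR, n = 3 per genotype). The log2 value was 2.18 when control replicate 3 was left out (adjusted p = 0.00062).

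The call on Tbx4 was lost without control replicate 1 (adjusted p = 0.0925) or 2 (0.133), without CKO replicate 1 (0.129), 2 (0.143) or 3 (0.130), and with a block for replicate number (0.0507). The log2 fold change stayed between 1.36 and 1.68 in those fits, and Tbx4 passed in 7 of 13 alternative fits. Tbx4 lay over the filter on low counts in 3 CKO but only 2 control libraries and so was tested through the group where it is high. With no filter its adjusted p was 0.0198.

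Pitx1 (ENSMUSG00000021506, chromosome 13, 55825051 to 55836192), which acts upstream of Tbx4 in the hindlimb, was at 14.9, 11.0 and 9.90 CPM in controls and at 14.4, 13.1 and 13.8 CPM in CKO libraries. The control range enclosed the other group. The log2 fold change was 0.21, with a 95% interval from -0.17 to 0.60 (adjusted p = 0.524 from edgeR). Gm47071, which is antisense to Pitx1, covers 6.21% of its exonic bases, and Gm28760 on the same strand 4.07%. The per-length ratio of Pitx1 to Tbx4 was 48.4, 29.4 and 11.8 in control libraries and 9.76, 7.86 and 8.93 in CKO replicates 1 to 3, without overlap, where the smallest p of an exact permutation test (two-sided) of 3 against 3 is 0.1.

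The forelimb gene Tbx5 (ENSMUSG00000018263, chromosome 5, 119832668 to 119885219) had 0 counts in 5 libraries and 8 counts in control replicate 3. Those 8 counts are 0.283 CPM of the unscaled library, with an exact (Clopper-Pearson) 95% interval of 0.122 to 0.558 that covers counting error only. For the 5 libraries at 0 the upper bound of the same interval is 0.139 to 0.182 CPM of the unscaled library. A limit of 3 counts per library is 0.110 to 0.149 CPM in these 5 libraries after TMM scaling, where the 8 counts of control replicate 3 are 0.287 CPM. Tbx5 did not pass the filter on low counts, and the main fit holds no test of it.

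The paired-related genes were among the limb genes with the highest levels. Prrx2 (ENSMUSG00000039476, chromosome 2, 30834972 to 30881251) was at 36.3, 33.1 and 34.4 CPM in controls and at 47.4, 44.4 and 46.2 CPM in CKO libraries. Both groups were tight and apart. Prrx2 rose 1.33-fold, from 34.6 ± 1.60 to 46.0 ± 1.47 CPM (SD, n = 3), and its log2 fold change was 0.41 (standard error 0.093, 95% interval 0.20 to 0.62, adjusted p = 0.0337 from edgeR), and it was the same 0.41 without control replicate 3 (adjusted p = 0.00153). The call was lost without control replicate 2 (adjusted p = 0.120), without CKO replicate 1 (0.172), 2 (0.104) or 3 (0.161), with no filter on low counts (0.0520), and with a block for replicate number (0.0908). Prrx2 passed in 7 of 13 alternative fits, and its log2 fold change lay between 0.38 and 0.45 over the 13.

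Prrx1 (ENSMUSG00000026586, chromosome 1, 163245119 to 163313710), whose regulatory sequence drives the Cre, was at 213, 211 and 283 CPM in control replicates 1 to 3 and at 276, 281 and 283 CPM in CKO replicates 1 to 3. Control replicate 3 lay level with the CKO libraries and apart from the other controls. Prrx1 went from 236 ± 41.1 to 280 ± 3.63 CPM (SD, n = 3). The log2 fold change was 0.25, with a 95% interval from -0.038 to 0.53 (adjusted p = 0.303 from edgeR, n = 3 per genotype). Without that library it was 0.40 (standard error 0.060, adjusted p = 0.000173), so 1 library decided the call on Prrx1. Whether the transgene adds reads to Prrx1 was not tested. The per-length ratio of Prrx1 to Prrx2 was 1.04, 1.13 and 1.46 in controls and 1.03, 1.12 and 1.08 in CKO libraries, and these ranges overlapped.

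The genes of skeletal growth did not pass the test. Tbx15 (ENSMUSG00000027868, chromosome 3, 99240381 to 99354259) was at 81.1, 73.7 and 92.6 CPM in controls and at 66.5, 60.3 and 65.4 CPM in CKO libraries, each of these below each control. Its log2 fold change was -0.36, with a 95% interval before adjustment from -0.61 to -0.12 (adjusted p = 0.0885 from edgeR). Tbx15 had a smaller log2 fold change without control replicate 3, -0.27, and passed (adjusted p = 0.017). Shox2 (ENSMUSG00000027833, chromosome 3, 66971727 to 66981771) was at 39.1, 44.9 and 61.3 CPM in controls and at 46.9, 39.1 and 42.2 CPM in CKO libraries, and the groups overlapped. Its log2 fold change was -0.18, with a 95% interval from -0.57 to 0.20 (adjusted p = 0.588), and it turned to 0.027 without control replicate 3. Rsrc1, a gene on the opposite strand that covers 4.62% of the exonic bases of Shox2, had a log2 fold change of -0.15 (adjusted p = 0.473).

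Lmx1b (ENSMUSG00000038765, chromosome 2, 33560965 to 33640511), the dorsal LIM-homeobox gene, had between 15 and 36 counts in a library. It was at 1.00, 0.662 and 1.00 CPM in controls and at 1.62, 1.69 and 0.722 CPM in CKO libraries. Replicate 3 of CKO lay within the controls and the other 2 above them. The log2 fold change was 0.60, with a 95% interval from -0.27 to 1.47 (adjusted p = 0.419 from edgeR), and the interval holds both no difference and a 2-fold rise.

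Levels of different genes were compared per kilobase of annotated exon. In control MSCs Tbx15 (22.0 ± 2.55 CPM per kilobase, SD, n = 3) and Prrx1 (21.3 ± 3.72) led, followed by Prrx2 (17.6 ± 0.816), Shox2 (14.6 ± 3.47) and Pitx1 (4.48 ± 0.983). Meis2 (1.15 ± 0.235), Meis1 (0.899 ± 0.0542), Tbx4 (0.191 ± 0.109) and Lmx1b (0.182 ± 0.0405) lay below Pitx1 in every control library. Neighbours in this order whose library ranges overlapped were Tbx15 and Prrx1, Prrx2 and Shox2, and Tbx4 and Lmx1b.

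In CKO MSCs the order was Prrx1 (25.3 ± 0.328 CPM per kilobase), Prrx2 (23.5 ± 0.747), Tbx15 (17.1 ± 0.876), Shox2 (12.9 ± 1.20), Pitx1 (5.18 ± 0.238), Tbx4 (0.588 ± 0.0374), Meis2 (0.548 ± 0.106), Meis1 (0.506 ± 0.0919) and Lmx1b (0.276 ± 0.111). Tbx4 overlapped with Meis2 and Meis2 with Meis1, whereas in controls both Meis genes lay above Tbx4 in every library. Tbx15 lay below both Prrx genes in every CKO library. The order depends on the length used. Per kilobase of the longest annotated transcript Prrx1 led in controls (36.1), with Prrx2 (24.0) and Tbx15 (23.1) after it. On that scale Meis2 (1.20) and Meis1 (0.706) had higher mean levels than Tbx4 (0.635) in CKO libraries. Prrx1 stood higher than 95.7% of all genes tested by its mean CPM, and Lmx1b higher than 8.77%.

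**Figure D4:**
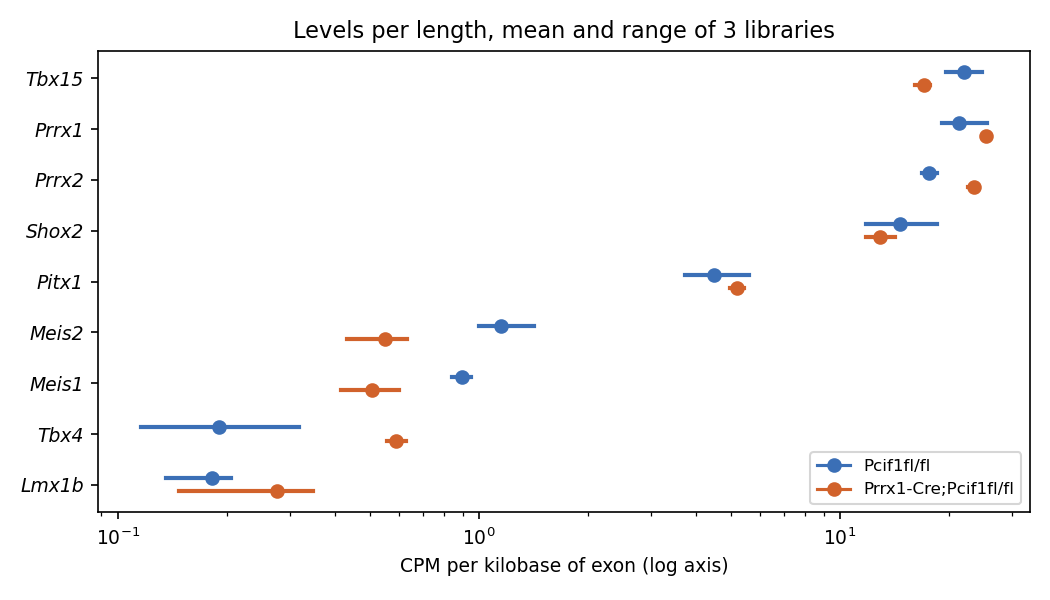
Mean (point) and range over 3 libraries (line) of CPM per kilobase of exon, on a log axis, for the 9 tested limb genes, in the order of the control means. Meis1 and Meis2 lie above Tbx4 in control libraries (0.899 and 1.15 against 0.191) and beside it in CKO libraries (0.506 and 0.548 against 0.588).

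The limb genes work with partners and within a wider set of patterning factors, which were listed by hand. Of 14 partners of TALE and LIM factors 13 could be tested, and 3 were lower and 0 higher in CKO MSCs, where 4.51% and 2.88% of all genes were. The count of higher partners was also 0 with DESeq2 and with limma-voom, and was 1 without control replicate 3. At an unadjusted p under 0.05 it was 0 in the main fit. It was 1 at that threshold with no filter, with a mean of at least 10 counts, and without control replicate 2 or 3 or CKO replicate 2. The median log2 fold change of the 13 was -0.25. Pknox2, a TALE relative of the Meis genes, fell by 1.51 on the log2 scale (adjusted p = 0.00124 from edgeR), from 7.80 ± 1.03 to 2.74 ± 0.0881 CPM (SD, n = 3), and passed in all 13 alternative fits. Lmo4, a LIM-only gene, fell by 0.98 on the log2 scale (adjusted p = 0.0104) and passed in 10 of 13. Pbx3 and the LIM cofactor gene Ldb1 had log2 fold changes of -0.66 and -0.32 and did not pass (adjusted p = 0.0909 and 0.124), although the groups of both did not overlap. Leaving out control replicate 3 gave 6 lower partners while 21.5% of all genes passed, and leaving out any 1 CKO library gave 1 while 3.38% to 3.73% did.

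Of 27 other limb and skeletal patterning factors 22 were in the table and 15 could be tested. In CKO MSCs 4 were lower and 1 higher, where 4.51% and 2.88% of all genes were, with a median log2 fold change of -0.058. Irx3 and Irx5, Iroquois genes that act in the proximal and anterior hindlimb, fell by 0.90 and 1.02 on the log2 scale (standard error 0.13 for Irx3 and 0.19 for Irx5, adjusted p = 0.00373 and 0.0146). Irx3 went from 35.7 ± 3.68 to 19.2 ± 1.88 CPM (SD, n = 3) and passed in all 13 alternative fits, and Irx5 in 11. Msx1, a homeobox gene of undifferentiated mesenchyme, fell by 0.88 (adjusted p = 0.0139, 10 of 13 fits). The LIM-homeobox gene Lhx2 had 14, 15 and 15 counts in controls and 4, 3 and 2 counts in CKO libraries. It reached the filter on low counts through the controls alone, and its adjusted p of 0.0323 became 0.0763 with no filter, so that of the 4 lower factors 3 rest on genes that were over the filter in all 6 libraries. Tbx3, the chromosomal neighbour of Tbx5, rose by 0.94 on the log2 scale (standard error 0.15, adjusted p = 0.0078, 11 of 13 fits), from 3.56 ± 0.213 to 6.84 ± 0.491 CPM (SD, n = 3). Leaving out 1 library gave between 1 and 5 lower factors, fewest without CKO replicate 2 or 3, and between 0 and 4 higher ones, most without control replicate 3. Of all genes 3.73% and 3.41% passed without CKO replicate 2 and 3, and 21.5% without control replicate 3.

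Of 22 genes of limb signals 18 were in the table and 11 could be tested, with 2 lower and 2 higher, where 4.51% and 2.88% of all genes were, and a median log2 fold change of -0.13. The lower ones were Rspo2 and Bmp4, with log2 fold changes of -1.60 and -1.44 (adjusted p = 0.000234 and 0.000764 from edgeR), which passed in all 13 fits. The study itself names both as reduced in its RNA-seq, so the count of lower signal genes is not independent of that report. Wnt5a, the Wnt ligand of limb outgrowth, rose by 0.45 on the log2 scale (adjusted p = 0.0415, 7 of 13 fits), and Etv4, a target of FGF signals, by 0.92 (adjusted p = 0.0264, 8 of 13 fits). The Hedgehog receptor gene Ptch1 had a log2 fold change of -0.44 (adjusted p = 0.110). Fgf8, Fgf9, Fgf10, Gli1, Wnt3, Wnt7a and Gdf5 were too low to be tested. The 2 higher calls were lost without control replicate 1 or 2 or CKO replicate 1 or 3, in each of which 0 genes of the list were higher at the adjusted threshold and 2 at an unadjusted p under 0.05. Of all genes 3.38% to 5.59% passed the adjusted threshold in these fits, and the share at the unadjusted one is not given.

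**Figure D5:**
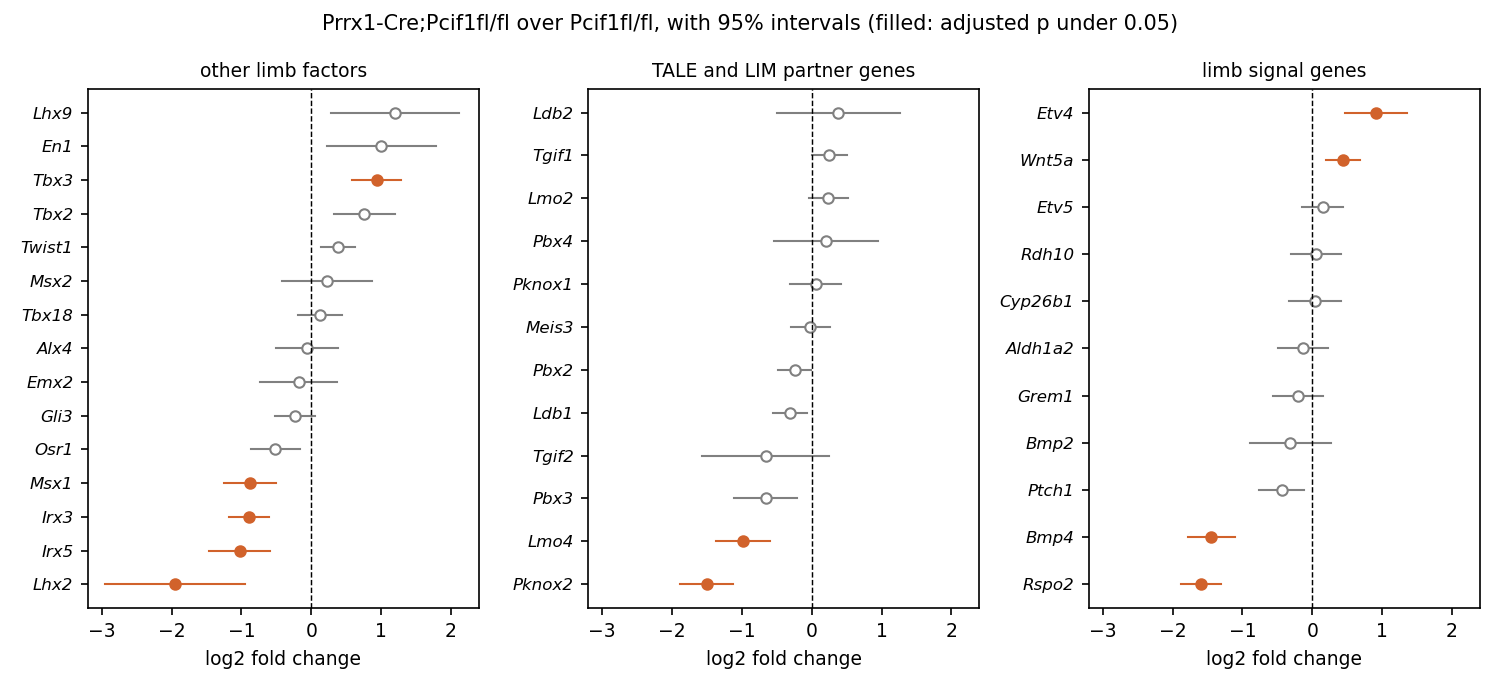
Log2 fold change of CKO over control libraries with its 95% interval for genes of 3 related lists (15 patterning factors, 12 of the 13 tested partners and 11 limb signal genes). Filled orange points have an adjusted p under 0.05, with 4, 2 and 2 lower and 1, 0 and 2 higher genes plotted.

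The genes with the profile most like that of a limb gene over the 6 libraries were named by the root-mean-square difference of mean-centred log2 CPM, among 12635 genes with a mean of at least 1 CPM. For Prrx1 these were Timp3, Dennd1b and Luzp1, which differed from it by 0.0328, 0.0330 and 0.0360 on the log2 scale. For Meis2 they were Zfp286, Slc15a2 and Adhfe1, which differed by 0.0415, 0.0905 and 0.0915. The 6 points of each profile share libraries and genotype groups, and the measure is a description.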

How the data were processed

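The deposited table holds raw gene counts, which the authors obtained from filtered reads aligned by HISAT2 (mm10). How reads were counted, with which annotation and strand setting, is not given in the sources used here. Each Ensembl ID was used once (92 of 20163 rows are exact repeats). edgeR 4.0.16 under R 4.3.3 was used for the test (filterByExpr, TMM, glmQLFit, glmQLFTest, no covariate). Standard errors were taken as |log2 fold change|/√F, and 95% intervals used the test's degrees of freedom. Positions, exon lengths and overlaps came from GENCODE M21 on GRCm38 (20059 IDs matched), and start sequences from RefSeq. Genes named were all limb genes, the 5 genes with the smallest p of each related list, nearest neighbours and the 3 most alike genes. Some genes that this rule names are not reported here. The limb genes, lists and tests were chosen with earlier results of these data known. Alternatives were DESeq2 1.42.0, limma-voom (limma 3.58.1), RLE and total-count scaling, 2 filters, a fold threshold, a replicate block, leaving out each library and, for levels, transcript length. The edgeR, DESeq2, limma-voom and block fits on 6 libraries were tested on simulated data. Replicate numbers did not pair the libraries (correlations of deviations 0.055, -0.045 and -0.013). Between libraries of 1 genotype, chi-square per gene was 2.83 or more, above sampling noise.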

Additional observations from a re-analysis of the deposited data

How the results depend on the processing

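With DESeq2, limma-voom, RLE or total-count scaling, or genes kept by a mean count of 10, the limb genes gave the same 2 lower and 2 higher calls. Of all genes 7.05% to 9.01% passed in these fits. With no filter on low counts 2 were lower and 1 higher, where 5.74% of all genes passed. With the fold threshold of 1 there was 1 lower and 1 higher limb gene, 2 lower and 0 higher patterning factors, 1 lower and 0 higher partners, and 2 lower and 0 higher signal genes. Of all genes 2.50% were lower and 1.03% higher at that threshold. The replicate block, whose numbers do not pair the libraries, gave 0 higher limb genes and 1 higher signal gene, where 5.61% of all genes passed. With it the adjusted p from edgeR was 0.0908 for Prrx2 and 0.0507 for Tbx4. At an unadjusted p under 0.05, for which no share of all genes is given, 2 limb genes were higher. DESeq2 gave 3 higher patterning factors, and total-count scaling 1 higher signal gene, where 9.01% and 7.70% of all genes passed. Leaving out 1 library gave 0 to 3 lower and 0 to 3 higher limb genes, 1 to 5 lower and 0 to 4 higher patterning factors, 1 to 6 lower and 0 to 1 higher partners, and 2 to 3 lower and 0 to 3 higher signal genes. Of all genes 3.38% to 21.5% passed in these fits. Of 117 alternative log2 fold changes of the 9 tested limb genes 97 kept direction and side of the threshold, 17 lost and 2 gained the call, and 1 reversed (Shox2, whose range without 1 library was -0.31 to 0.027, the latter without control replicate 3). The cause was not tested. Tbx5 was too low for the main filter. With no filter it did not pass (adjusted p = 0.413 from edgeR), and DESeq2 gave it no adjusted p. Tbx4 and Lmx1b rest on 9 to 43 and 15 to 36 counts a library.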

Other observations

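Of 21 neighbours of the limb genes on the chromosome 15 could be tested, with 0 lower and 2 higher in CKO MSCs. Of all genes tested 4.51% were lower and 2.88% higher. Some other neighbours stood close to the threshold of the test. Tbx2, at 44.5 kilobases from Tbx4, was at 2.53 ± 0.121 CPM in control and 4.27 ± 0.664 CPM in CKO MSCs (SD, n = 3; log2 fold change 0.76, adjusted p = 0.0509 from edgeR). Ptges, at 8.22 kilobases from Prrx2, had a log2 fold change of 0.58 (adjusted p = 0.0522). The neighbours on the other side of these genes did not stand close to it. Brip1 beside Tbx4 and Asb6 beside Prrx2 had log2 fold changes of -0.56 and 0.16 (adjusted p = 0.237 and 0.513 from edgeR).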
